A study of Drosophila melanogaster with 2 samples.

Results

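Hemocytes are the blood cells of the fly, and the nuclei described here are those that carried hemocyte marker RNA among nuclei dissected as nephrocytes from adult *Drosophila melanogaster*. A nucleus was taken as a hemocyte nucleus when it had at least 1 UMI (unique molecular identifier, 1 count per captured RNA molecule) in 2 or more of the genes *Hml*, *NimC1*, *eater*, *Pxn* and *Sr-CI*, and when the summed share of these genes in its UMIs was at least 5 times their share over all nuclei. By this rule 323 of 13868 nuclei were hemocyte nuclei, which is 2.33% (exact binomial 95% interval 2.08% to 2.59%). The 5 genes chose the nuclei, so their levels in the chosen nuclei are given as a description only.

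The study profiled single nuclei by droplet sequencing (10x Genomics) in 1 sample of female and 1 sample of male flies aged 5 to 7 days. All flies carried *w1118*; *Dot-Gal4*, *UAS-GFP.nls*, in which the *Dot* driver puts green fluorescent protein into the nuclei of the cells where it is active, and there was no other genotype or treatment. Flies were dissected 10 at a time under fluorescence and collected in tubes of 50, so each sample is a pool of animals. The fluorescence guided the dissection, and the nuclei in the tables included many of other tissues.

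The counts came in 2 tables, which the deposit names for the 2 sexes but ties to no sample record, and they are called the larger and the smaller table here. The larger held 7890 barcodes and 19107558 UMIs, with a median of 1315 UMIs per nucleus, and the smaller held 5978 barcodes and 18130609 UMIs, with a median of 1481. The tables share 14 barcodes, of which 1 belongs to a hemocyte nucleus. Values below are summed over nuclei and given as CPM, the UMIs of a gene per 1000000 UMIs of the same nuclei. Intervals are exact at 95% and cover counting error only. With 1 table per sample, differences between tables have no replicate check.

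In the fly, hemocytes circulate in the hemolymph or sit on tissues, and in adults many rest along the heart, next to the pericardial nephrocytes. Plasmatocytes, the macrophage-like class that makes up most hemocytes, engulf microbes and dying cells through receptors of the Nimrod and scavenger families, and they secrete collagen IV, laminin and other parts of basement membranes. Crystal cells are a smaller class that carries prophenoloxidases for melanization, and lamellocytes appear mainly in larvae that meet parasites. Among the genes that chose the nuclei, *Hml* encodes Hemolectin, a clotting protein; *Pxn* encodes Peroxidasin, which crosslinks collagen IV; *NimC1* and *eater* encode phagocytosis receptors; and *Sr-CI* encodes a scavenger receptor.

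Hemocyte nuclei made up 194 of 7890 nuclei in the larger table (2.46%, 2.13% to 2.82%) and 129 of 5978 in the smaller (2.16%, 1.80% to 2.56%). The intervals overlap. Their median was 2314 UMIs and 1045 genes per nucleus, against 1372 UMIs and 685 genes in all other nuclei, so hemocyte nuclei were the deeper group. Of the 323, 211 had UMIs of exactly 2 of the 5 genes, 88 had 3, 21 had 4 and 3 had all 5. The UMIs of the 5 genes per hemocyte nucleus ranged from 2 to 33 with a median of 6, and 33 nuclei rested on 2 such UMIs. *Hml* had 1333 UMIs in 295 of the nuclei and *Pxn* had 682 in 281, and both were found in 253. *Sr-CI* had 138 UMIs in 108 nuclei, *eater* had 57 in 51 and *NimC1* had 54 in 50. *NimC1* and *eater* were found together in 10 nuclei.

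The share threshold decided the fate of many nuclei. Over both tables the 5 genes took 112.9 CPM, which puts the threshold at 564.5 CPM. The nuclei just inside stood at 5.02, 5.04 and 5.12 times the pooled share, and the nuclei just outside at 4.99, 4.92 and 4.89 times. In all, 482 nuclei had UMIs of at least 2 of the genes, and the 159 of them below the threshold were deep, with a median of 14323 UMIs and none under 3599. Of the hemocyte nuclei, 12 also met the same kind of rule built from oenocyte genes and 16 met one built from muscle genes, 28 in all. Doublets were not removed.

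Whether the label held was read from a gene that the choice had not used. Each of the 5 genes was left out in turn, nuclei were chosen by the same rule on the other 4, and the left-out gene was compared with all other nuclei by edgeR's quasi-likelihood test on the counts summed per table, with the table as a block. All 5 were higher in the nuclei so chosen, in both tables. Each p rests on 4 sums, which leave 1 residual degree of freedom, and takes its spread from all genes.

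*Hml* stood at 588.2 CPM in the larger table and 909.9 in the smaller in the 146 nuclei chosen without it, against 56.9 and 50.2 CPM in all other nuclei. That is a log2 fold change of 3.70 (SE 0.158, adjusted p = 4.70e-114), in a test that called 1.42% of 10280 genes higher. *Pxn* stood at 380.0 and 351.2 CPM in 157 nuclei, against 34.3 and 22.9 (log2 fold change 3.66, SE 0.180, adjusted p = 1.93e-86, 1.91% of genes called higher). For both genes the level in the chosen nuclei was more than 10 times that of the others in each table, with ratios between 10.3 and 18.1.

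*Sr-CI* stood at 72.6 and 80.2 CPM in 293 nuclei against 4.73 and 2.72 (log2 fold change 4.35, SE 0.333, adjusted p = 4.93e-36, 2.25% of genes called higher). The phagocytosis receptors rested on few molecules. *NimC1* had 40 UMIs in 313 nuclei, which is 25.5 and 41.3 CPM against 1.74 and 1.14 (log2 fold change 4.45, SE 0.515, adjusted p = 1.30e-15, 1.9% of genes called higher). *eater* had 41 UMIs in 312 nuclei, which is 32.1 and 33.5 CPM against 1.20 and 1.42 (log2 fold change 4.62, SE 0.536, adjusted p = 1.41e-15, 2.19% of genes called higher). The intervals of chosen and other nuclei did not overlap for any of the 5 genes in either table.

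**Figure D1:**
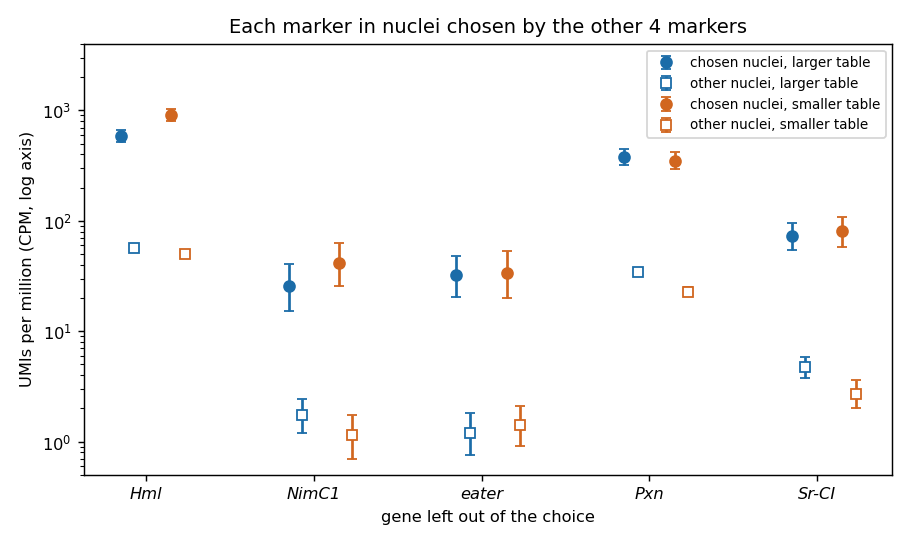
CPM (log axis) of each marker gene in the nuclei chosen by the other 4 markers (filled circles) and in all other nuclei (open squares), for the larger and the smaller table; bars are exact 95% Poisson intervals. In both tables the chosen nuclei lie above the others for all 5 genes, from 588.2 against 56.9 CPM for *Hml* to 25.5 against 1.74 CPM for *NimC1* in the larger table.

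The likeness of the nuclei was then read from the rest of the transcriptome. All nuclei with at least 200 genes were clustered on 2000 variable genes with the 5 genes left out, which gave 38 clusters. One cluster of 272 nuclei, 162 from the larger table and 110 from the smaller, was led by *Had2*, *CG8046*, *NimC1*, *CG10359*, *CG34165*, *Pxn*, *eater*, *lncRNA:CR45660*, *Karl* and *Sr-CI*. It was taken as the hemocyte-like cluster because it held the most hemocyte nuclei, so its lead in them was set by that choice. Of the 5 marker genes, none of which was used to cluster, 4 stood among its 10 leading genes. At Leiden resolution 1, none of the 5 was among the 10 leading genes of the cluster with the most hemocyte nuclei. In it the 5 genes summed to 2375 CPM, and in no other cluster did they pass 157.6 CPM. The highest other cluster stood at 187.3 CPM at resolution 1 and at 326.2 CPM with 3000 variable genes. The clusters with the most hemocyte nuclei there stood at 2063 and 2462 CPM.

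The hemocyte-like cluster held 153 of the 323 hemocyte nuclei (47.4%), which made up 56.2% of its nuclei (exact binomial 95% interval 50.1% to 62.2%). The other 170 were spread over 32 other clusters, at most 18 in any of them. The highest share in another cluster was 5.69% (2.97% to 9.72%), in a cluster led by *jef* and holding the cholinergic neuron gene *VAChT* among its leading genes. Hemocyte nuclei inside the hemocyte-like cluster had a median of 1178 UMIs, and those outside it a median of 4415.5 UMIs. More than 3000 UMIs were found in 32 of the nuclei inside and in 111 of those outside.

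**Figure D2:**
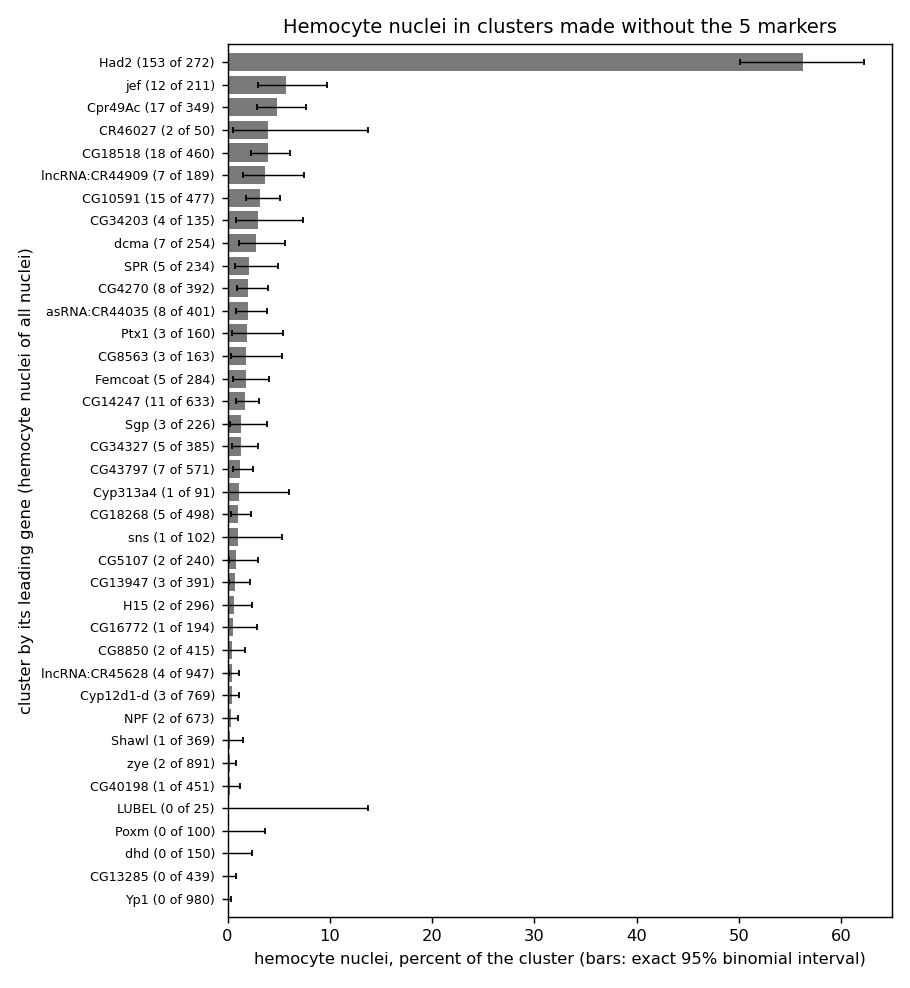
Percent of each cluster made up of hemocyte nuclei (horizontal axis), for 38 clusters named by their leading gene, with the counts in brackets; bars are exact 95% binomial intervals. The cluster led by *Had2* stands at 56.2% and no other cluster passes 5.69%.

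Inside and outside the cluster, hemocyte nuclei differed in level. *Hml* stood at 2228 CPM inside and 723.8 outside, and *Pxn* at 1214 and 349.9. *Had2*, which did not choose the nuclei, stood at 409.7 CPM inside and 81.0 outside, a ratio of 5.06 (3.77 to 6.82). *Ppn*, which encodes papilin, a basement membrane protein, stood at 2502 and 737.8 CPM. *Hml* and *Pxn* chose the nuclei and were left out of the clustering, while the other genes could shape the clusters, so all these levels are a description.

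The nuclei outside the cluster still stood above nuclei that were neither hemocyte nuclei nor in the cluster. *Had2* was at 81.0 CPM there against 6.50, a ratio of 12.5 (9.55 to 16.1). *CG32091* was at 166.0 against 17.4 CPM (9.52, 7.97 to 11.3), *Ppn* at 737.8 against 174.2 (4.23, 3.92 to 4.57) and *srp* at 329.9 against 216.5 (1.52, 1.36 to 1.70). *Had2* and *CG32091* were picked for their levels over all 323 nuclei, most of whose UMIs came from the nuclei outside the cluster, so these ratios are a description. In the edgeR test of these 170 nuclei, made after the data had been seen, 126 of 10605 genes were higher (1.19%) and 174 were lower (1.64%).

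Other RNA moved with the split. *apolpp*, the fat body gene for the main lipoprotein of the hemolymph, was at 5611 CPM in hemocyte nuclei outside the cluster, at 2813 inside it and at 5381 in nuclei that were neither. *FASN3*, a fatty acid synthase of oenocytes, was at 1561 CPM outside the cluster, at 131.7 inside it and at 1207 in the rest. The 12 fat body markers together summed to 11276 CPM outside and 6621 inside, against 11475 in all other nuclei, 7441 in nuclei chosen by oenocyte genes and 3998 in nuclei chosen by muscle genes. The sum of the muscle markers went the other way, with 4038 CPM outside and 5531 inside. *Zasp52* gave 1867 of their 5551 UMIs in the hemocyte nuclei. Gene by gene, hemocyte nuclei inside the cluster had 5 muscle markers lower and 1 higher than all other nuclei. The median log2 fold change of the muscle markers there was -1.11, beside -0.30 over all genes tested. Muscle genes could shape the clusters, so these counts and medians are a description. The midgut markers summed to 340.9 CPM outside (305.7 to 379.1) and 442.6 inside (367.3 to 528.9), with intervals that overlap. The nephrocyte markers summed to 4120 CPM outside and 4097 inside, with intervals that overlap. The part of depth and of RNA from other cells in the split was not tested.

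The cluster also held 119 nuclei that the rule had not chosen, with a median of 1493 UMIs. There *Hml* stood at 478.8 CPM against 28.2 in nuclei that were neither (17.0-fold, 14.1 to 20.4) and *Pxn* at 378.0 against 15.0 (25.1-fold, 20.2 to 31.0), although each of these nuclei had failed the rule on those genes. *Had2* stood at 309.6 CPM, *CG32091* at 385.2, *Ppn* at 1642 and the GATA cofactor gene *ush* at 784.8. For these 4 genes the level lay below that of the hemocyte nuclei in the cluster and above that of the hemocyte nuclei outside it.

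**Figure D3:**
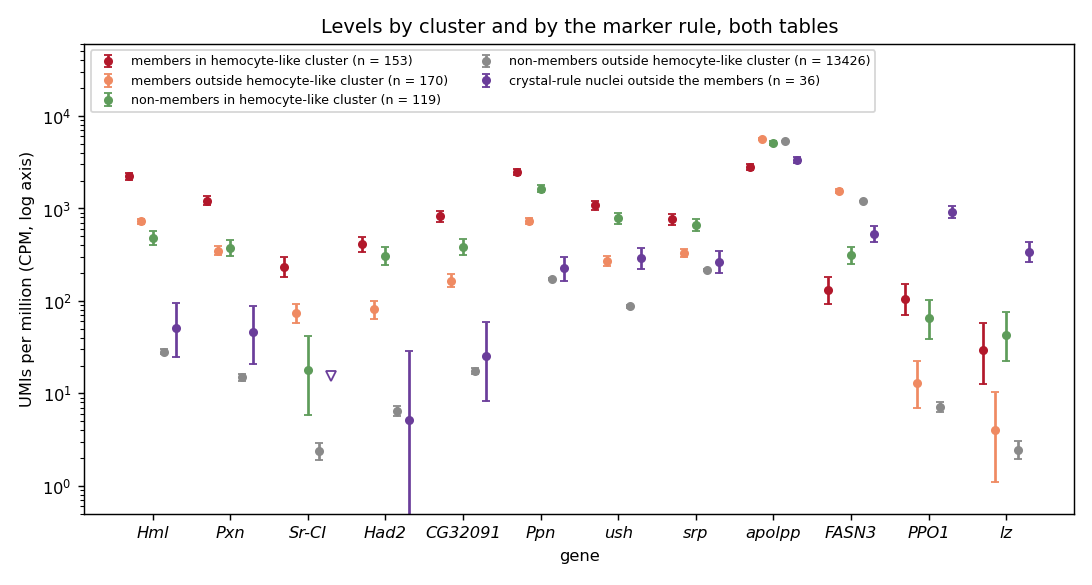
CPM (log axis, both tables) of 12 genes in hemocyte nuclei inside and outside the hemocyte-like cluster, in other nuclei inside and outside it, and in nuclei chosen by crystal cell genes; "members" are the hemocyte nuclei, bars are exact 95% Poisson intervals, and an open triangle is the upper limit of a count of 0. *Had2* falls from 409.7 CPM in the first group to 6.50 in nuclei that are neither, while *apolpp* stands at 2813 CPM or more in all 5 groups.

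Which further genes marked the hemocyte nuclei was asked with the same test against all other nuclei, with the 5 genes left out of the fit. Of 10733 genes tested, 224 were higher (2.09%) and 247 were lower (2.3%), with the threshold set at an adjusted p of 0.05. DESeq2, a second count test, called 120 higher (1.12%) and 42 lower (0.391%), and 119 of its 120 were among the 224. Without the table as a block edgeR called 0 genes, with 325 at an unadjusted p under 0.05. Of the genes named in the text that edgeR called, DESeq2 did not call *crq*, *NimB5*, *LanB1*, *LanB2*, *PPO1*, *RhoL*, *N*, *CtsL1*, *emp*, *Alk*, *Npc2b*, *atilla*, *GstS1*, *mid*, *CG15279*, *tnc*, *Oct-TyrR*, *CG15155*, *kl-5*, *CG34165*, *cad*, *Obp56a* and *Acp54A1*. In these data fewer molecules per nucleus and fewer nuclei with the gene cannot be told apart in a sum.

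The 20 genes with the largest ratio of CPM were named, with ratios over both tables from 8.47 to 18.5, and DESeq2 called all 20. Their levels in this comparison describe what they were chosen for.

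*Had2* had 116 and 77 UMIs in the hemocyte nuclei of the larger and smaller table, which is 157.7 and 143.1 CPM, against 11.3 and 6.31 CPM in all other nuclei. Its log2 fold change was 4.11 (SE 0.229, adjusted p = 9.99e-68), and 125 of the hemocyte nuclei had a UMI of it. *CG32091* stood at 345.3 and 256.5 CPM against 24.7 and 15.6 (log2 fold change 3.90, SE 0.173, adjusted p = 6.37e-107). Its UMIs were found in 172 hemocyte nuclei, with at most 7 in any of them. For both genes the levels in the hemocyte nuclei of the 2 tables lay nearer to each other than to those of the other nuclei.

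Genes for transcription factors and signals stood among the 20. *pnr*, which encodes the GATA factor Pannier, was at 148.2 and 184.0 CPM against 18.9 and 12.9 (log2 fold change 3.37, SE 0.209, adjusted p = 1.06e-54). *Ets21C*, an ETS-domain factor of stress responses, was at 69.3 and 94.8 CPM against 8.22 and 6.59 (log2 fold change 3.43, SE 0.268, adjusted p = 8.88e-35). It overlaps *nAChRbeta3*, a nicotinic acetylcholine receptor subunit gene that was also among the 20 (59.8 and 55.8 CPM against 4.84 and 4.60), on the opposite strand, and since no source used here states the strand setting of the counting, the reads of the 2 genes cannot be told apart. *Sema2a*, a secreted semaphorin known from axon guidance, was at 373.9 and 394.0 CPM against 59.3 and 30.3, with a log2 fold change of 3.14 (SE 0.148, adjusted p = 6.12e-94).

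*lectin-24Db*, which encodes a C-type lectin, was at 36.7 and 33.5 CPM against 2.29 and 2.56. *Karl*, which encodes a lipocalin, was at 88.4 and 63.2 CPM against 7.08 and 4.49. *NtR* had the largest ratio of the 20, 18.5, at 47.6 and 44.6 CPM against 3.27 and 1.71. *lncRNA:CR45660*, with 19.6 CPM against 1.25, overlaps *Pxn* on the same strand in the annotation and so is not independent of the rule. The rest of the 20 were *CG8046*, *CG10359*, *CG15695*, *CG3777*, *CG7120*, *CG31051*, *Corin*, *CG4250*, *CG1092* and *CG42694*, with ratios from 9.04 to 18.2. *NtR*, *CG32091*, *Karl*, *CG3777*, *CG7120* and *Corin* each overlap another annotated gene on the opposite strand, with the same limit as for *Ets21C*. *CG3777* also overlaps *CG12470* and *Or1a* on its own strand, where counting by strand would not separate the reads, so its level is uncertain.

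**Figure D4:**
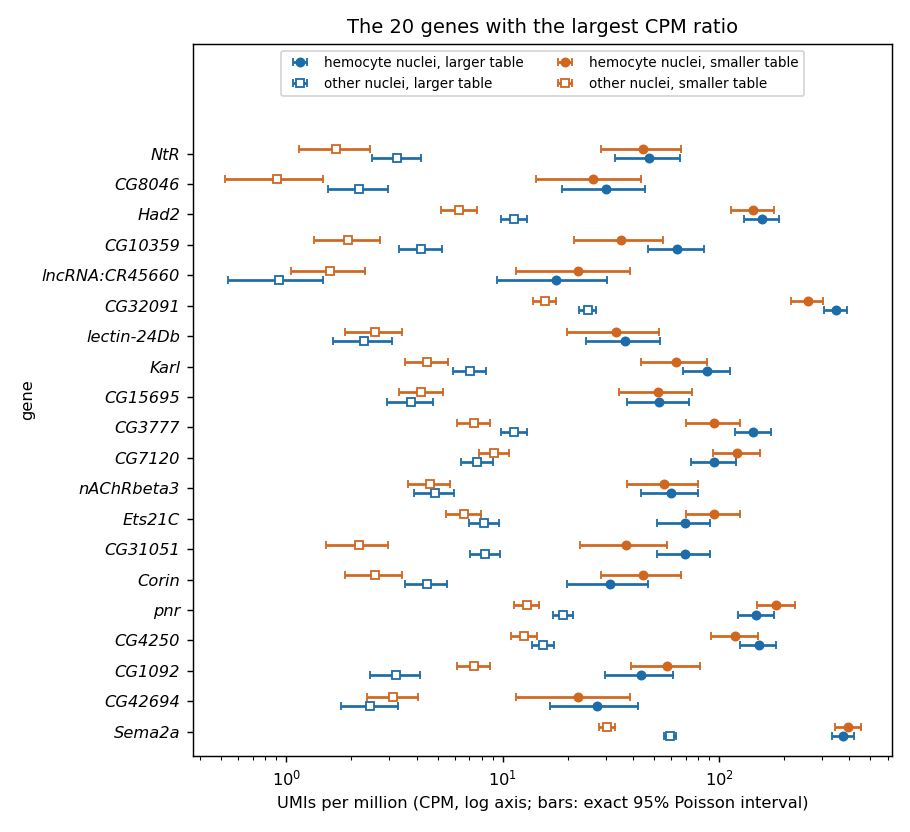
CPM (log axis) of the 20 genes with the largest ratio, in hemocyte nuclei (filled circles) and all other nuclei (open squares), for the larger and the smaller table; bars are exact 95% Poisson intervals. In each table every filled circle lies to the right of the open square of the same colour, with *Had2* at 157.7 against 11.3 CPM in the larger table.

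Shares of nuclei with a UMI depend on depth, so each nucleus was also thinned to 500 UMIs. *Hml*, which chose the nuclei, was then found in 48.9% of hemocyte nuclei, in 1.01% of all others, in 0.772% of nuclei chosen by oenocyte genes and in 0.704% of those chosen by muscle genes. The median depths before thinning were 2314, 1372, 1433.5 and 1079.5 UMIs. *Had2* was found in 16.1% of hemocyte nuclei (exact binomial 95% interval 12.3% to 20.6%; 38.7% unthinned) and in 0.310% of all others, in 0 of 648 oenocyte-rule nuclei, which allows up to 0.463%, and in 0.402% of muscle-rule nuclei. *Ppn* was found in 54.8% (91.6% unthinned), against 7.70%, 4.17% and 7.14%. *srp* was found in 28.5% (65.9% unthinned), against 8.84%, 4.63% and 3.82%. For *Ppn* and *srp* the interval of the thinned share in hemocyte nuclei lay above those of both tissue groups.

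*Pxn* RNA was not limited to hemocyte nuclei. After thinning it was found in 2.31% of muscle-rule nuclei (1.47% to 3.45%) and in 0.154% of oenocyte-rule nuclei (0.00391% to 0.857%), against 37.2% of hemocyte nuclei. In CPM it stood at 49.1 in muscle-rule nuclei and at 8.59 in oenocyte-rule nuclei.

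Of 15 hemocyte markers that had not chosen the nuclei, 12 were tested, and 9 were higher and none lower. Their median log2 fold change was 1.36, beside -0.06 over all genes tested, with 2.09% of all genes called higher. Inside the hemocyte-like cluster, 9 markers were higher and 1 lower than in all other nuclei, beside 231 and 430 of 10733 genes. Outside it, 6 were higher and none lower than in nuclei that were neither, beside 126 and 174 of 10605 genes. The markers could shape the clusters, so the counts by cluster are a description. *ush*, the cofactor of GATA proteins in blood cell fate, was at 475.9 and 403.3 CPM against 90.9 and 95.8 (log2 fold change 2.22, SE 0.133, adjusted p = 4.66e-59). *srp*, which encodes the GATA factor Serpent required for hemocyte formation and also used in fat body, was at 398.4 and 457.2 CPM against 211.2 and 229.1 (log2 fold change 0.94, SE 0.123, adjusted p = 3.09e-12). The ratios of hemocyte to other nuclei in the larger and smaller table were 5.23 and 4.21 for *ush* and 1.89 and 1.995 for *srp*. *Pvr*, the receptor for PDGF- and VEGF-related factors, was at 611.8 and 589.1 CPM against 301.2 and 338.3 (log2 fold change 0.90, adjusted p = 9.80e-13).

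The remaining markers were mixed. The markers *Nplp2* and *Tep4* were not called, at 549.3 and 1054 CPM against 740.6 and 1007 for *Nplp2* and at 19.0 and 22.3 against 37.2 and 21.9 for *Tep4*. *He*, which encodes Hemese, a hemocyte surface protein, had 8 UMIs in 8 hemocyte nuclei and 5 UMIs in all other nuclei, too few to be tested. *Sr-CII*, a paralog of *Sr-CI*, had 0 UMIs in hemocyte nuclei, which allows up to 2.36 CPM.

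In the Nimrod family, whose members bind bacteria and apoptotic cells, 7 of 10 genes were tested, and 4 were higher and none lower, beside 2.09% of all genes called higher. *NimB1* was at 106.0 and 83.6 CPM against 10.1 and 23.0 (log2 fold change 2.64, SE 0.237, adjusted p = 5.38e-26) and *NimB4*, a secreted protein that helps clear apoptotic cells, at 76.1 and 42.7 against 11.97 and 10.9 (log2 fold change 2.37, SE 0.272, adjusted p = 8.57e-16). *NimB5* had a log2 fold change of 1.64 and *drpr*, the engulfment receptor Draper, one of 0.92. *NimB2* was not called, at 115.6 and 141.2 CPM against 77.8 and 103.7. Of 20 scavenger and pattern recognition receptors matched, *crq*, the CD36 family receptor Croquemort, and *PGRP-LC*, the membrane receptor of the Imd pathway, were higher (log2 fold changes 0.79 and 0.94), and *emp*, another CD36 family gene, was lower (-0.46). The median log2 fold change of that list was -0.20. As a log2 ratio of CPM its median was -0.14, and it turned above 0 with either table left out, to 0.0804 without the larger and 0.0977 without the smaller. The same median of the Nimrod family was 0.94, 1.72 without the larger table and 1.06 without the smaller. For these CPM ratios a small constant was added to the UMIs of both groups, which raises the ratio of genes with few UMIs. *NimC4* had 0 CPM in both groups of the smaller table, so the constant alone set its ratio there above 1. The part of the constant in the shifts of both lists was not tested.

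Of 11 hemocyte transcription factor genes, 9 were tested, and 4 were higher and none lower, beside 2.09% of all genes called higher. Besides *srp* and *ush* these were *zfh1*, a zinc-finger homeodomain factor (log2 fold change 2.16, SE 0.118, adjusted p = 1.21e-69), and *pnt*, the ETS factor Pointed of receptor tyrosine kinase signalling (0.85, SE 0.103, adjusted p = 3.98e-14). *zfh1* was at 630.8 and 797.2 CPM against 134.7 and 184.1. *kn*, which encodes Collier, was not called, and 49 of its 65 UMIs came from 1 nucleus. Inside the hemocyte-like cluster, 4 of the list were higher and 1, *kn*, was lower than in all other nuclei, beside 231 and 430 of 10733 genes. Outside it, 5 were higher than in nuclei that were neither, *kn* among them, beside 126 of 10605 genes. These counts by cluster are a description as well.

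Of 14 basement membrane genes matched, 8 were higher and none lower, beside 2.09% of all genes called higher and 2.3% lower. Their median log2 fold change was 0.94. In hemocyte nuclei inside the hemocyte-like cluster alone, 8 were higher and 2 lower than in all other nuclei. Basement membrane genes could shape the clusters, so the counts inside it are a description. *Ppn* was at 1225 and 968.2 CPM against 243.2 and 125.3 (log2 fold change 2.62, SE 0.114, adjusted p = 9.10e-111). *Col4a1* and *vkg*, which encode the collagen IV chains, were at 780.4 and 617.0 CPM against 232.6 and 168.9, and at 417.4 and 291.8 against 114.6 and 74.0, with log2 fold changes of 1.79 (SE 0.117) and 1.90 (SE 0.139). Both genes were higher in each table, and *Col4a1* was found in 266 of the hemocyte nuclei.

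The laminin genes *LanA*, *LanB1* and *LanB2* had log2 fold changes of 2.26, 0.90 and 0.97. *SPARC*, a collagen-binding protein, had 1.06, and the matrix metalloproteinase gene *Mmp2* had 1.20. The perlecan gene *trol* was not called, at 1944 and 1431 CPM against 2256 and 1806, and neither were *Mmp1* and *Timp*. *PH4alphaEFB*, a prolyl hydroxylase of collagen, was singled out after its values had been seen, and stood at 140.0 and 145.0 CPM against 36.9 and 53.0 (log2 fold change 1.68, SE 0.188, adjusted p = 9.98e-17).

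Calls in the response and motility lists stand beside 2.09% of all genes called higher and 2.3% lower. At these shares a short list can hold no called gene, so a list without calls is not set apart from all genes. None of 17 Toll and Imd pathway genes, none of the 6 imaginal disc growth factors and none of 13 antimicrobial peptide genes was called (7 of the last were tested). Of 17 genes for migration and engulfment through the actin cytoskeleton, *ena*, *mbc* and *RhoL* were higher, with log2 fold changes of 0.94, 0.90 and 0.82. Of 11 integrin and adhesion genes (10 tested), *mew*, an integrin alpha chain, was higher (0.58). Of 22 signalling genes (21 tested) *Pvr* and *N* were higher and *Alk* was lower (-1.51). In the endocytosis list *CtsL1* was higher (0.51) and *Npc2b* lower (-0.58), of 18 genes. Of 6 lamellocyte genes (4 tested) *msn* was higher (0.77) and *atilla* lower (-0.52). Of 9 clotting genes (5 tested) only *PPO1* and *PPO2* were called. Of 9 redox enzyme genes (8 tested) the glutathione transferase gene *GstS1* was lower (-0.52).

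**Figure D5:**
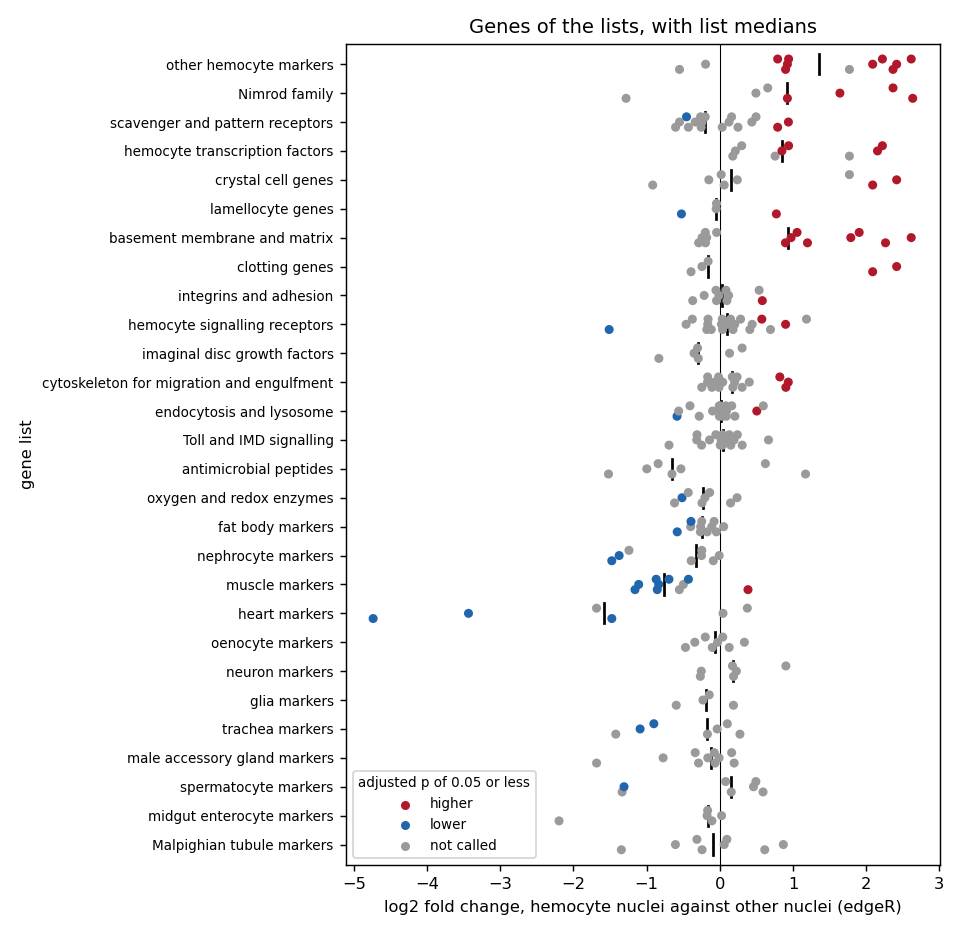
Log2 fold change (edgeR, horizontal axis) of hemocyte against other nuclei for the tested genes of each list, coloured by call, with the median of each list as a black bar. The medians of other hemocyte markers (1.36), basement membrane (0.94), the Nimrod family (0.92) and hemocyte transcription factors (0.85) lie to the right of 0, and that of heart markers (-1.58) to the left.

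Crystal cell genes stood apart from the other markers. *PPO1* and *PPO2*, the prophenoloxidases of crystal cells, were called higher (log2 fold changes 2.09 and 2.42), at 12.2 and 61.3 CPM against 8.06 and 7.11 for *PPO1* and at 24.5 and 59.5 against 8.87 and 5.97 for *PPO2*. These sums came from few nuclei. *PPO1* had 42 UMIs in 10 of the 323 nuclei, 17 of them in 1 nucleus, and *PPO2* had 50 UMIs in 11. Without the 8 hemocyte nuclei that met a crystal cell rule, made after the data had been seen (UMIs of at least 2 of *lz*, *PPO1* and *PPO2*, and 5 times their pooled share), the log2 fold changes were -1.61 for *PPO1* and -0.61 for *PPO2*. That rule picks nuclei by these genes and left its other nuclei in the comparison group, so the drop was set by the choice and is a description. Across 8 crystal cell genes, 2 were higher and none lower, beside 2.09% of all genes called higher.

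The crystal cell rule found 44 nuclei in all, of which 36 were not hemocyte nuclei by the marker rule. Those 36 lay in 20 clusters, 1 of them in the hemocyte-like cluster and at most 8 in any other, and their median was 4307.5 UMIs. *Hml* stood at 51.2 CPM and *Pxn* at 46.1 CPM in them, and *eater* and *Sr-CI* had 0 UMIs, which allows up to 15.4 CPM of each. These nuclei had failed the rule on those genes, so the choice held the levels down and they are a description. In all nuclei outside the hemocyte nuclei, *Hml* was at 32.2 and 31.1 CPM and *Pxn* at 21.4 and 14.1 in the larger and smaller table. *Had2* stood at 5.12 CPM, on 1 UMI, a ratio to hemocyte nuclei of 0.034 (0.00085 to 0.190). *Had2* was picked for its level in the hemocyte nuclei, so that ratio is a description too. *CG17109*, listed as a crystal cell gene, stood at 148.4 CPM in the 36 nuclei and at 1.22 in all nuclei outside the hemocyte nuclei, which include the 36. How many of the 36 nuclei carried its UMIs is not given here. The other listed genes that did not choose these nuclei, *fok*, *peb*, *klu* and *CG10467*, are not given for them either, so *CG17109* is a single example. *PPO1* (921.3 CPM), *PPO2* and *lz* chose these nuclei.

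Few genes were strongly lower in hemocyte nuclei, and 7 met the rule for naming, with ratios to the other nuclei from 0.037 to 0.277. *H15* and *mid*, T-box factors of the heart, were at 10.9 and 11.2 CPM against 98.9 and 143.4, and at 1.36 and 0 CPM against 21.0 and 21.3 (log2 fold changes -3.43 and -4.74). The others were *CG15279*, *tnc*, *Oct-TyrR*, an octopamine and tyramine receptor, *NetA*, a netrin of axon guidance, and *CG15155*, with log2 fold changes from -2.22 to -1.85. *NetA* was at 43.5 and 29.7 CPM against 142.2 and 151.4 (adjusted p = 1.54e-18).

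Markers of other tissues were tested as a group in the same way. Of 12 muscle markers, 10 were tested, and 7 were lower and 1 higher, beside 2.3% of all genes called lower and 2.09% higher. Their median log2 fold change was -0.76, and *Mhc*, the muscle myosin heavy chain, was at 373.9 and 362.4 CPM against 609.9 and 732.3. Of 6 heart markers 3 were lower. Among 12 fat body, 9 nephrocyte and 7 trachea markers, 2 of each were lower and none higher. No oenocyte, neuron, glia, midgut, Malpighian tubule or male accessory gland marker was called, and of 9 spermatocyte markers *kl-5* was lower. Of the markers called, DESeq2 called *Mhc*, *bt*, *Mf*, *up*, *H15* and *Zasp52*. Nuclei outside the hemocyte-like cluster gave 1000256 of the 1273637 UMIs in these sums. Hemocyte nuclei inside it, taken alone, had 9 fat body, 4 oenocyte, 2 glia, 1 neuron and 1 Malpighian tubule markers lower than all other nuclei. None of those 5 lists had a marker higher there, and 430 of 10733 genes were lower. The markers could shape the clusters that set these nuclei apart, so these counts are a description. The 6 heart markers summed to 29.9 and 26.0 CPM in hemocyte nuclei against 148.3 and 197.7 in all others, with intervals that do not overlap. The fat body markers summed to 12093 and 7794 CPM in hemocyte nuclei against 14792 and 8011 in all others. The 10 accessory gland markers summed to 1.36 and 600.2 CPM against 1.25 and 655.5. The 5 female germline genes matched were all at 0 in hemocyte nuclei. The part of this RNA in the levels above was not tested.

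Between the tables, hemocyte genes were compared by the ratio of their levels. Genes of few UMIs have wide intervals, such as *CG8046* with 22 and 14 UMIs (ratio 1.15, 0.562 to 2.43). An interval that includes 1 therefore does not show a like level, and the share over all genes is not given here. Of 44 genes compared (the 5 rule genes, the 20 above and the called members of the 4 lists of hemocyte markers, basement membrane, transcription factors and the Nimrod family), 30 had an interval of the ratio of larger to smaller table that included 1. The ratio was above 1 beyond its interval for 10 genes and below 1 for 4, and it ranged from 0.200 for *PPO1* (0.084 to 0.426) to 1.87 for *CG31051* (1.09 to 3.30). The 20 had to pass a ratio of 3 to the other nuclei in each table, and the list members were called over both tables. The choice thus favoured genes high in both tables, so these counts are a description. *Hml* stood at 987.1 CPM in the larger and 1128 in the smaller table (ratio 0.875, 0.785 to 0.976) and *Ppn* at 1225 and 968.2 (1.27, 1.13 to 1.41).

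Over all genes, ratios beyond 3 between the tables were counted. Of 3855 genes with at least 20 UMIs in the hemocyte nuclei of 1 table, 53 were higher in the larger table and 80 in the smaller by a ratio whose interval lay beyond 3. In the other nuclei the interval of the ratio also lay beyond 3, in the same direction, for 37 of the 53 and 78 of the 80. *Yp1*, a yolk protein, had 1777 UMIs in the larger table and 0 in the smaller, and a ratio of 8068 in the other nuclei. *Obp57a*, *Obp56a*, *eloF* and *Fad2* also had 0 UMIs in the smaller table, with 167, 121, 83 and 73 in the larger. *Mst57Da*, an accessory gland gene, had 0 UMIs in the larger table and 119 in the smaller, *Muc14A* had 0 and 155, and *Acp54A1* had 0 and 111. These genes split the other nuclei in the same direction.

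Among the 16 genes higher in the larger table for which the interval in the other nuclei did not lie above 3, single nuclei carried some of the sums. *CG34165*, a leading gene of the hemocyte-like cluster, had 29 UMIs in the larger table and 0 in the smaller, but 22 of the 29 lay in 1 of 2 nuclei. *cad*, a homeobox gene of the posterior gut, had 66 and 6 UMIs, 63 of them in 1 nucleus. *Antp*, a Hox gene of the thorax, had 216 and 21 UMIs in 18 nuclei, with 56 in 1 of them, and a ratio of 7.53 (4.80 to 12.4) against 1.49 (1.40 to 1.58) in the other nuclei. The intervals do not hold for UMIs that share a nucleus. *nAChRalpha7* had 22 and 0 UMIs in 9 nuclei. The split of these genes between the tables has no replicate.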

How the data were processed

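Single nuclei from 1 female and 1 male sample of dissected adult flies were counted. Per the labels and methods, the authors made the deposited counts with Cell Ranger and analysed them with Seurat; the tables hold raw UMI counts per gene and barcode, while its version, genome build and strand setting were not given in the sources used here. No table is tied to a sample record, so no column was given to a sample (2 tables). Every barcode held at least 500 UMIs, and no ambient RNA or doublet correction was applied here. FlyBase IDs were matched to symbols, and 68 of 15423 genes had none. The annotation (BDGP6) served for gene overlaps only.

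Counts were summed per table and group of nuclei and fitted with edgeR 4.0.16 (quasi-likelihood test, TMM, filterByExpr, table as a block, Benjamini-Hochberg, threshold 0.05; R 4.3.3), with the genes of the rule left out. The sums of a table come from the same library, and the table deviations of the groups correlated at 0.75 over 10733 genes for the 2 tables. The replicates are 2 pools of flies, and the block takes up the difference between them. The p-values rest on how far the group difference varied between the tables, with a spread shared over genes. DESeq2 1.42.0, other scalings, filters, rules and groups of nuclei were alternatives. Clusters were made with scanpy 1.11.5 (30 components, 15 neighbours, Leiden resolution 2). On simulated counts for this comparison (10798 genes, 50 changed per fold size) edgeR recovered 49 genes at 4-fold up, 25 at 2-fold up, 18 at 0.5 and 41 at 0.25, with 6 false calls. The spread of the simulated sums was a set value, and only genes with many UMIs in the other nuclei were changed. The recovery therefore does not extend to genes of few UMIs there, such as *NtR* with 60 and 30.

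Named genes were the 5 of the rule, list members, and among called genes the 20 with the largest and up to 10 with the smallest CPM ratio that had at least 20 UMIs (expected, for the smallest), 10 nuclei and a ratio past 3; between tables, up to 10 each way. The members and lists were chosen with earlier results of these data known. Other genes named are said to be so where they appear, or were chosen after their values were seen (*apolpp*, *FASN3*, *CG34165*, *cad*, *Antp*, *nAChRalpha7*).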

Additional observations from a re-analysis of the deposited data

Results flagged for a closer look

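The direction differed between the tables for 2 genes of the lists, and the difference was not tested. *wgn*, a receptor of the tumour necrosis factor family, stood at 1.30 times the level of the other nuclei in the larger table and at 0.385 times in the smaller (95.2 and 20.4 CPM in hemocyte nuclei against 73.3 and 53.1). *kmr* stood at 1.19 and 0.819 times (531.6 and 364.2 CPM against 447.8 and 444.9). Neither was called over both tables.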

How the results depend on the processing

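The number of hemocyte nuclei was 323 and moved to 112 when 3 of the 5 genes were needed, to 146 without *Hml* and to 157 without *Pxn*. The 224 genes higher became 120 with DESeq2, 147 with 3 of the 5 genes and 125 for hemocyte nuclei outside the hemocyte-like cluster; the 247 lower became 42 with DESeq2 and 430 inside the cluster. Without the replicate block both counts were 0 (325 genes at an unadjusted p under 0.05; the simulated data gave 0 recovered without it too), and the left-out genes kept their log2 fold changes without a call: 3.73 for *Hml* (adjusted p = 0.402), 4.48 for *NimC1* (0.344), 4.61 for *eater* (0.225), 3.64 for *Pxn* (0.571) and 4.35 for *Sr-CI* (0.262). Of 60 genes named by ratio or from the hemocyte lists, DESeq2 lost 18, among them *crq*, *NimB5*, *LanB1*, *LanB2*, *PPO1*, *mid* and *Alk*. Hemocyte nuclei of at most 3000 UMIs gave 199 higher and 311 lower. *PPO1* (-1.61) and *PPO2* (-0.61) reversed without the crystal cell rule nuclei, which those genes had picked. List medians of the log2 CPM ratio moved without the larger or the smaller table, from 0.94 to 1.72 or 1.06 for the Nimrod family and from -0.14 to 0.0804 or 0.0977 for the scavenger and pattern receptors. The part of the constant added to the UMIs of both groups in these shifts was not tested. Unthinned shares were 91.6% for *Ppn*, 38.7% for *Had2* and 65.9% for *srp*. Depth limits genes of few UMIs, such as *He*. Leaving out a table leaves 1 sum per group and no test.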
